A study of Homo sapiens with 9 samples.

Results

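Heat shock proteins are molecular chaperones, and the 10 genes described here encode the main ones of the cytosol and of the mitochondrial matrix in human cells. They were chosen by name from the 35876 gene symbols of one count table: HSPA1A, HSPA1B and HSPA8 (the HSP70 proteins that bind unfolded stretches of polypeptide), DNAJB1 (a J-domain protein that delivers clients to HSP70 and stimulates its ATPase), HSPH1 (an HSP110 protein that exchanges nucleotide on HSP70), HSP90AA1 and HSP90AB1 (the stress-inducible and the constitutive cytosolic HSP90), HSPB1 (a small heat shock protein that holds unfolded proteins without ATP), and HSPD1 and HSPE1 (the chaperonin HSP60 and its co-chaperonin HSP10, which fold proteins imported into mitochondria). HSPA8 and HSP90AB1 are made in unstressed cells, whereas HSPA1A, HSPA1B, DNAJB1 and HSPH1 are classical targets of heat shock factor 1, a transcription factor that HSP70 and HSP90 hold back until unfolded proteins draw them away.

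RNA was sequenced from HEK293, an established human embryonic kidney cell line, in a series about switching a gene off and on again with a chemical. The 3 groups, of 3 replicates each, carried the genotypes CC_Cas9 (here Cas9), CC_Cas9_Cre (Cre) and CC_Cas9_Flpo (Flpo). All 3 thus carried Cas9, an RNA-guided nuclease, and the prefix CC, which the labels leave unexplained, while Cre recombines DNA at loxP sites and Flpo at FRT sites. The labels give no promoter, clone, inducer, dose or time, and do not say whether the replicates were separate cultures, so p-values measure only the spread between these libraries, which may be technical.

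The libraries differed in depth and in the scaled levels of markers of other cell types. The smallest total of estimated counts was 213907 (Cre replicate 2) and the largest 8833491 (Flpo replicate 1), with every Cre library below every Flpo library. A floor of 3 counts corresponds to 0.340 CPM (counts scaled to a common library total) in the largest library and to 14.0 CPM in the smallest. Of 8 HEK293 markers, 7 exceeded 3 counts in some library (PAX2 did not), and their summed level was 45.9 to 107 CPM. The extraction protocol mentions livers, but the liver gene ALB was at 0 in 8 libraries and had 5 counts in Flpo replicate 2. All 6 fibroblast markers were detected, and their summed level was 280 to 1088 CPM in Cas9, 665 to 8207 CPM in Cre (the highest in replicate 2) and 189 to 215 CPM in Flpo. In counts, COL1A1, COL1A2 and COL3A1 together had 452.8 (Cas9 replicate 2) to 1858.8 (Flpo replicate 1), with 1720.7 in Cre replicate 2. These counts varied far less than the library totals, so the marker CPM differ largely through the totals they are divided by. Of the 10 liver markers, 6 exceeded 3 counts in some library, with TAT at 6.4 to 48 counts and APOA1 at 1 to 10 counts across the 9 libraries. The liver sum was 9.09 to 26.4 CPM in Cas9, 26.3 to 59.5 in Cre and 1.35 to 11.04 in Flpo. The 6 blood markers summed to 0 to 6.42 CPM. The part of these markers in the results was not tested, and depth and genotype cannot be told apart between Cre and Flpo. In bulk RNA, fewer cells of a type and less RNA per cell cannot be told apart either.

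Heat shock factor 1 binds inverted repeats of a short unit, the heat shock element, and the elements found before the members' start sites are shown here because such elements are known to control heat shock genes. The motif searched was GAANNTTC or TTCNNGAA, that is 2 facing units, where N is any base. Each form is its own reverse complement, so both strands were read at once, and the forms overlap in an element of 3 or more units. The search covered the 250 bases before each RefSeq start site (GRCh38.p14), and all 10 members had an entry. Capitals mark the motif in each stretch of 30 bases, written 5′ to 3′ on the gene's strand.
HSPA1A (chr6:31815426-31815455, plus strand): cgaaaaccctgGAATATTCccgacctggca
HSPA1B (chr6:31827622-31827651, plus strand): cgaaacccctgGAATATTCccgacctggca
HSPA8, distal (chr11:123062346-123062375, minus strand): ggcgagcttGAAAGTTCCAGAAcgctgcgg
HSPA8, proximal (chr11:123062171-123062200, minus strand): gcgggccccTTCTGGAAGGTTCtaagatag
HSP90AA1 (chr14:102087104-102087133, minus strand): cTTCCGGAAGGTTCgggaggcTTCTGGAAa
HSP90AB1, distal (chr6:44247769-44247798, plus strand): gggagcaggTTCTGGAAGATTCatgggctc
HSP90AB1, proximal (chr6:44247822-44247851, plus strand): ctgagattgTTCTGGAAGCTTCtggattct
DNAJB1, distal (chr19:14518456-14518485, minus strand): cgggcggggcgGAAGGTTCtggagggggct
DNAJB1, proximal (chr19:14518426-14518455, minus strand): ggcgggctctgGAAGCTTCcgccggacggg
HSPD1 (chr2:197500061-197500090, minus strand): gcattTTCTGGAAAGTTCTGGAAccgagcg
HSPB1 (chr7:76302480-76302509, plus strand): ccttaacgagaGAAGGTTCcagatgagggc

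An element of at least 3 units stood before HSPA8, HSP90AA1, HSP90AB1 and HSPD1. Elements of 2 units stood before HSPA1A, HSPA1B, DNAJB1 and HSPB1, and none was found in the windows of HSPH1 and HSPE1. Of 35116 windows of this length, 11.58% held the 2-unit motif and 0.44% an element of at least 3 units. Counted by gene, as the members are here, the shares were 13.96% and 0.56% of 27305 genes. The stretches from HSPA1A and HSPA1B differ at 1 of 30 positions. HSPD1 and HSPE1 lie head to head on chromosome 2, with start sites 539 bases apart, and the HSPD1 element lies between them. This element covers positions -245 to -228 relative to the start of HSPD1. Its nearer edge is 294 bases from the start of HSPE1, outside the window searched for HSPE1. In GENCODE release 29 the HSPD1 element also falls within exons of longer HSPD1 and HSPE1 transcripts, and the elements of HSPA8 and HSP90AA1 fall within exons of longer transcripts of their own genes. A match describes letters only, and binding was not measured.

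Of the 10 members, 9 had enough counts to be tested. Each of the 9 passed the filter on low counts (5.88 CPM, the value of 10 counts in the median library) in all 3 Cas9 libraries. HSPA1A was not tested, with 0 to 11.5 estimated counts a library. Its transcripts share 73.6% of their 31-base words with HSPA1B, the neighbouring and nearly identical gene on chromosome 6, so the split of reads between these genes is uncertain and the values of HSPA1B may hold reads of both.

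Of the 3 comparisons of 2 groups, members passed the test only in Cre against Flpo. HSPE1, HSPD1, HSPA8, HSPA1B and HSPH1 were lower in Cre than in Flpo, with log2 fold changes of -4.65, -3.12, -2.84, -2.81 and -2.46, and each passed edgeR's quasi-likelihood test at an adjusted p under 0.05. These 5 of 9 tested members compare with 14.3% of all 11905 tested genes that were lower in Cre and 20.5% that passed in either direction. The members' median log2 fold change was -2.46, against -0.34 for all tested genes. HSP90AA1, HSP90AB1, DNAJB1 and HSPB1 did not pass. Against the Cas9 group, no member passed in either Cre or Flpo.

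**Figure D1:**
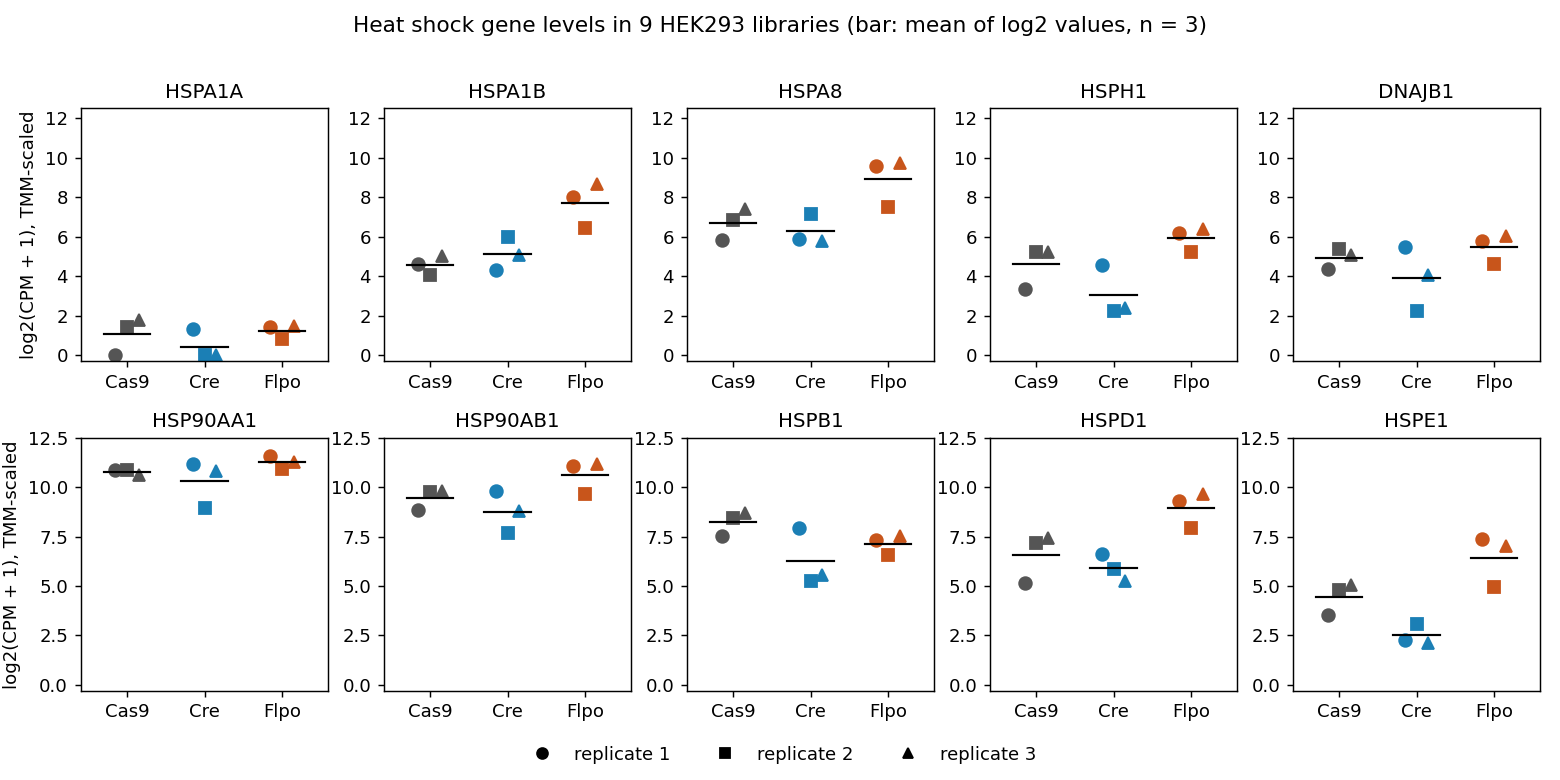
Level of each heat shock gene in every library, as log2 of CPM plus 1 after TMM scaling (vertical axis), by group (horizontal axis). Symbols give the replicate and the bar is the mean of the 3 log2 values. Flpo replicates 1 and 3 lie above all Cas9 and Cre libraries for every tested member except HSPB1. In each panel Flpo replicate 2 lies below Flpo replicates 1 and 3, and HSPA1A is near 0 throughout.

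Levels below are CPM after TMM scaling (a correction of library totals for composition), in replicates 1, 2 and 3 of each group, and gene positions are those of GENCODE release 29 (GRCh38). HSPA8 (chr11:123057489-123063230; the constitutive HSP70) was at 56.8, 114 and 166 CPM in Cas9, 57.9, 143 and 53.6 in Cre, and 763, 182 and 838 in Flpo. Flpo replicates 1 and 3 were far above all other libraries, whereas Flpo replicate 2 was close to the highest Cas9 and Cre libraries. The edgeR log2 fold change of Cre against Flpo was -2.84 ± 0.72 (SE; adjusted p = 0.0227), or -2.50 relative to the median of all tested genes. Flpo against Cas9 gave 2.40 ± 0.70 (adjusted p = 0.102), and Cre against Cas9 gave -0.44 ± 0.68 (adjusted p = 0.786). The Cre and Flpo libraries did not overlap for HSPA8 with TMM scaling but did on library totals alone.

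HSPA1B (chr6:31827735-31830255; the stress-inducible HSP70) was at 23.9, 15.9 and 31.4 CPM in Cas9, 18.8, 62.5 and 32.3 in Cre, and 256, 86.1 and 411 in Flpo. All Flpo libraries were above all others, and the Cas9 and Cre libraries overlapped. Cre against Flpo was -2.81 ± 0.67 (edgeR adjusted p = 0.0197). HSPA1B also had the largest positive log2 fold change of the tested members for Flpo against Cas9, at 3.40 ± 0.67, with an edgeR adjusted p of 0.0548. Its unadjusted edgeR p was 1.97e-04 there and 9.74e-04 in Cre against Flpo. Adjustment runs over all genes, and 27 passed in Flpo against Cas9 but 2440 in Cre against Flpo. The HSPA1B difference of Flpo from Cas9 passed with DESeq2 (adjusted p = 1.31e-04). It also passed without Flpo replicate 2 (edgeR adjusted p = 0.00207), a fit in which 21.3% of tested genes passed for Flpo against Cas9. On library totals alone, Cre replicate 2, at 79.5 CPM from 17 counts, lay above Flpo replicate 2, at 68.5 CPM.

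HSPA1B as a ratio to HSPA8, which cancels library scaling, was 0.25 ± 0.15 in Cas9, 0.455 ± 0.14 in Cre and 0.433 ± 0.085 in Flpo (SD, n = 3 each). An exact permutation test of the log2 ratios over the 3 groups (280 arrangements) gave p = 0.125, or 0.188 after adjustment over 3 such ratios. The smallest p the design allows is 0.00357. The balance of these HSP70 genes was thus not shown to differ between groups.

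Of the HSP70 partners, HSPH1 was lower in Cre than in Flpo and DNAJB1 did not pass. HSPH1 (chr13:31134974-31162388) was at 9.06, 36.4 and 36.8 CPM in Cas9, 22.7, 3.68 and 4.25 in Cre, and 72.9, 35.8 and 83.8 in Flpo. Its Cre values in replicates 2 and 3 rest on 1 and 5 counts. Every Cre library was below every Flpo library, at -2.46 ± 0.75 (edgeR adjusted p = 0.0378). HSPH1 was the least secure of the 5 calls: it was lost on library totals alone (-1.70, adjusted p = 0.0899), with thinned libraries (adjusted p = 0.0904) and in the fit of the 6 compared libraries (adjusted p = 0.0527).

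DNAJB1 (chr19:14514770-14529770) was at 19.8, 40.3 and 32.3 CPM in Cas9, 44.1, 3.68 and 15.9 in Cre, and 54.6, 23.2 and 65.5 in Flpo. The lowest value rests on 1 count in Cre replicate 2, and the Cre and Flpo libraries overlapped. The difference of Cre from Flpo was -1.03 ± 0.67 (edgeR adjusted p = 0.259). DNAJB1 and HSPH1 varied together over the 9 libraries, with a Pearson correlation of 0.866 between scaled levels, a description over libraries that share depth and group.

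The 2 cytosolic HSP90 genes were the most abundant of the 10 per kilobase of transcript in Flpo. HSP90AA1 (chr14:102080738-102139699) was at 1894, 1846 and 1560 CPM in Cas9, 2333, 487 and 1813 in Cre, and 3084, 1943 and 2468 in Flpo. Most libraries lay in one narrow band, and Cre replicate 2 stood below it. In Cre against Flpo its log2 fold change was -0.69 ± 0.75 (edgeR adjusted p = 0.493), and the sign turned on library totals alone, at 0.10.

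HSP90AB1 (chr6:44246166-44253888) was at 457, 861 and 902 CPM in Cas9, 885, 202 and 441 in Cre, and 2162, 800 and 2340 in Flpo. Flpo replicate 2 fell below Cre replicate 1, so the groups overlapped. Cre against Flpo was -1.79 ± 0.74 (edgeR adjusted p = 0.0935), with an unadjusted p of 0.0309. Without Flpo replicate 2, HSP90AB1 passed too, which made 6 members past the threshold, while the share of all tested genes that passed rose from 20.5% to 44.1%.

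The ratio of the inducible HSP90AA1 to the constitutive HSP90AB1 was 2.67 ± 1.29 in Cas9, 3.05 ± 0.92 in Cre and 1.64 ± 0.71 in Flpo (SD, n = 3 each). The exact permutation test gave p = 0.2, also after adjustment over the 3 ratios. Within Cas9 this ratio ran from 1.73 to 4.15, a range that held all 3 Cre values.

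With TMM scaling, the mean of HSPB1 (chr7:76302544-76304295) was not highest in Flpo, unlike those of the other 8 tested members. On library totals alone HSP90AA1 was not highest in Flpo either, with means of 1919 CPM in Cas9, 1951 in Cre and 1816 in Flpo. HSPB1 was at 183, 345 and 417 CPM in Cas9, 243, 36.8 and 46.2 in Cre, and 157, 94.7 and 187 in Flpo. Its mean was highest in Cas9, and Cre replicate 1 was above every Flpo library. Flpo against Cas9 was -1.11 ± 0.69 (edgeR adjusted p = 0.387), with TMM scaling the only negative value among the tested members in that comparison. On library totals alone HSP90AA1 was negative too, at -0.075. HSPB1 was then at -1.62 (edgeR adjusted p = 0.169), with every Flpo library below every Cas9 library. The share of all tested genes with that order on library totals was not counted. For HSPB1, Cre against Flpo was -0.40 ± 0.69 (adjusted p = 0.677) and turned positive on library totals alone, at 0.36. Cre against Cas9 was -1.50 ± 0.70 (adjusted p = 0.619).

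The mitochondrial pair HSPD1 and HSPE1 had the largest differences between Cre and Flpo among the members. HSPD1 (chr2:197486581-197516737) was at 35.1, 144 and 169 CPM in Cas9, 95.8, 57.3 and 37.4 in Cre, and 623, 247 and 811 in Flpo. All Flpo libraries were above all Cas9 and Cre libraries. Cre against Flpo was -3.12 ± 0.72 (edgeR adjusted p = 0.0190), and Flpo against Cas9 was 2.27 ± 0.69 (adjusted p = 0.109).

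HSPE1 (chr2:197499994-197503457) was at 10.7, 27.3 and 31.6 CPM in Cas9, 3.86, 7.35 and 3.40 in Cre, and 163, 29.6 and 130 in Flpo. Its Cre values rest on 8, 2 and 4 counts, with replicate 2 under the floor of 3. All Cre libraries were below all Cas9 and all Flpo libraries, while Flpo replicate 2 fell within the Cas9 range. Cre against Flpo was -4.65 ± 0.79 (edgeR adjusted p = 0.0167). HSPE1 was also the tested member with the lowest unadjusted p for Cre against Cas9, at 0.00684 for -2.46 ± 0.77, but its adjusted p was 0.619.

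Reads of HSPE1 and HSPD1 can be shared with their processed pseudogenes. Pseudogenes named after HSPE1 held 75.5% of the joint count in Cre replicate 3 and 1.38% in Flpo replicate 3. For HSPD1 that share was highest in Cre replicate 2, at 29.6%, and lowest in Flpo replicate 1, at 1.47%. With pseudogene counts added, Cre against Flpo was -3.19 for HSPE1 and -2.91 for HSPD1, and both still passed (edgeR adjusted p = 0.0167 and 0.0185). HSPE1 against Cas9 in Cre shrank to -1.34.

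HSP60 and HSP10 work as one machine, and the ratio of HSPD1 to HSPE1 was 4.63 ± 1.17 in Cas9, 14.5 ± 9.06 in Cre and 6.13 ± 2.25 in Flpo (SD, n = 3 each). The exact permutation test gave p = 0.05, or 0.15 after adjustment over the 3 ratios. The highest ratio, 24.8 in Cre replicate 1, divides 198.7 by 8 counts. Pseudogenes are left out of this ratio, and those named after HSPE1 held 60.9%, 50% and 75.5% of the joint count in Cre. Their share was 59.3%, 10.8% and 11.9% in Cas9 and 1.57%, 23.6% and 1.38% in Flpo. The part of these shares in the ratio was not tested.

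**Figure D2:**
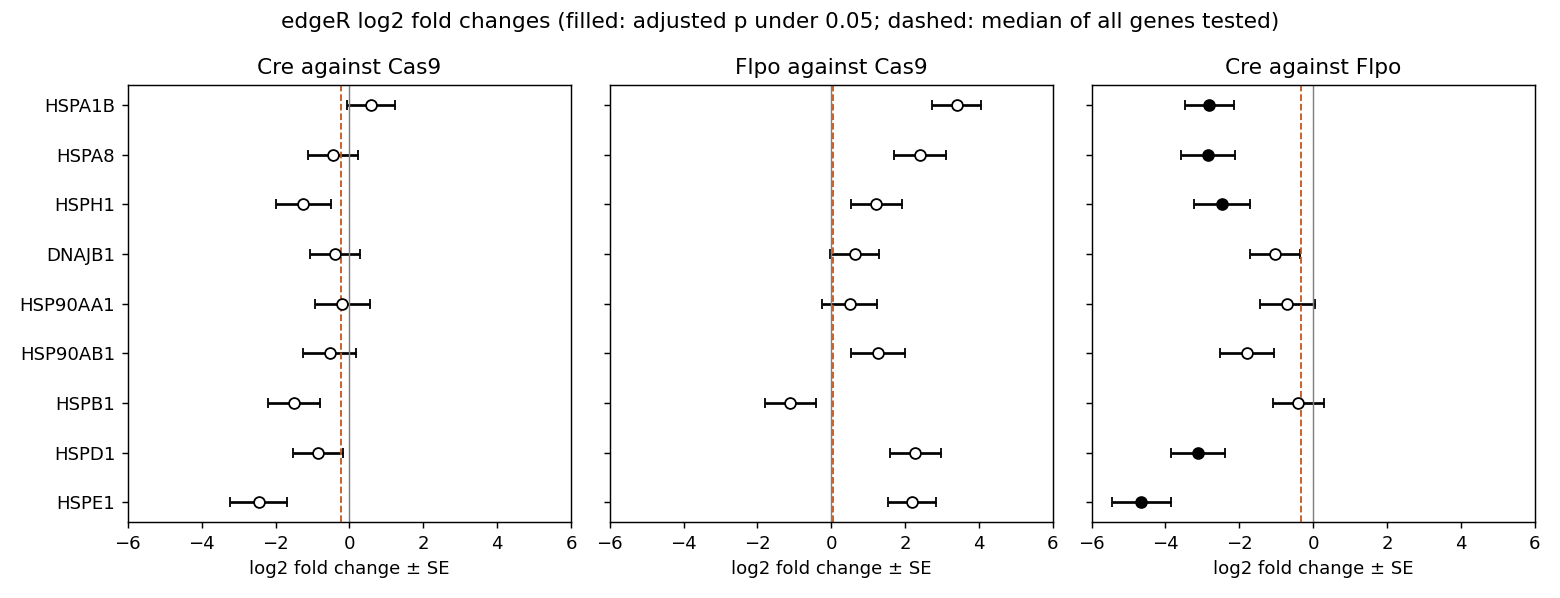
Log2 fold change with its standard error for the 9 tested members in each comparison (edgeR, 3 libraries a group). Filled points have an adjusted p under 0.05, and the dashed line is the median of all tested genes. The 5 filled points are HSPA1B, HSPA8, HSPH1, HSPD1 and HSPE1 in Cre against Flpo, between -2.46 and -4.65.

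The comparisons with the Cas9 group share its 3 libraries, so they are given side by side and not as separate evidence. For Flpo against Cas9, 0 of 9 tested members passed edgeR's test, where 0.227% of tested genes did. In that test 4 members had an unadjusted p under 0.05 (HSPA1B, HSPA8, HSPD1 and HSPE1), as did 2378 of 11905 tested genes. DESeq2 called 4 members and 7.75% of its tested genes, and limma voom with quality weights called 7 members and 61% of tested genes. HSPA1B, HSPA8, HSPD1 and HSP90AA1 had all Flpo libraries above all Cas9 libraries with TMM scaling, as did 12.7% of tested genes, and HSPA1B and HSPD1 kept that on library totals alone. The members' median log2 fold change was 1.26, against 0.05 for all tested genes. That of all genes was -0.48 without TMM.

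For Cre against Cas9, 0 of 9 tested members passed edgeR's test, as did 0% of tested genes. HSPE1 had an unadjusted p under 0.05, as did 879 of 11905 tested genes. DESeq2 called 0 members and 0.0158% of its tested genes, and limma voom with quality weights 5 members and 33.3% of tested genes. HSPE1 had all Cre libraries below all Cas9 libraries, as did 6.41% of tested genes. The members' log2 fold changes ran from -2.46 for HSPE1 to 0.59 for HSPA1B, with a median of -0.53 against -0.22 for all tested genes.

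In a single edgeR test of any difference among the 3 groups, 4 of 9 members passed, against 9.51% of tested genes. They were HSPE1 (adjusted p = 0.0154), HSPA1B (0.0165), HSPD1 (0.0276) and HSPA8 (0.0312). All 5 members called in Cre against Flpo had no overlap between those groups with TMM scaling, as did 27.8% of tested genes. Relative to the median of all genes, which moved from -0.34 to 0.44 without TMM, the 5 differences ranged from -2.12 for HSPH1 to -4.31 for HSPE1.

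These calls depended on single libraries. Without Cre replicate 2, Cre replicate 3 or Flpo replicate 1, 0 members and 0 of all tested genes passed edgeR's test in Cre against Flpo. Each time 5 members kept an unadjusted p under 0.05, and the log2 fold changes of the 5 called members stayed between -4.84 and -2.03. With all 9 libraries, 6 members and 4734 of 11905 tested genes had an unadjusted p under 0.05 in edgeR's test. That number was not counted over all genes in the other fits. Without Flpo replicate 3, HSPE1 alone of the members passed (edgeR adjusted p = 0.0410), where 3.28% of tested genes did. With each library's depth (log2 of its total count) in the fit, 0 members and 0 of all genes passed, and 2 members had an unadjusted p under 0.05.

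**Figure D3:**
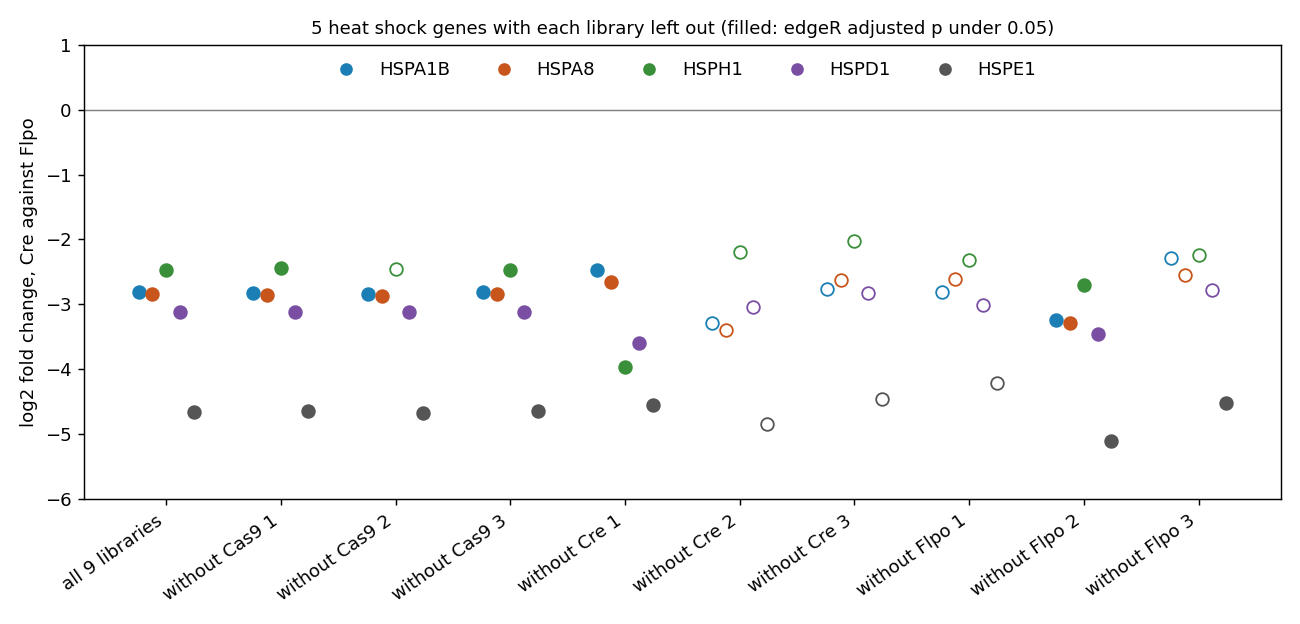
Log2 fold change of Cre against Flpo (vertical axis) for the 5 called members, with all 9 libraries and with each library left out in turn (horizontal axis). Filled points have an edgeR adjusted p under 0.05. All points stay between -5.11 and -2.03, and all 5 are open without Cre replicate 2, Cre replicate 3 or Flpo replicate 1.

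Per kilobase of transcript (median length of the coding transcripts), HSP90AA1 ranked first of the 10 members in each group, at 513 ± 52.4 CPM per kb in Cas9, 448 ± 276 in Cre and 725 ± 166 in Flpo (SD, n = 3 each). HSPB1 had rank 2 in Cas9, at 439 ± 167, rank 3 in Cre and rank 5 in Flpo, at 204 ± 65.3. By mean in Flpo, HSP90AA1 was followed by HSP90AB1, at 676 ± 322, HSPA8, at 296 ± 179, HSPD1, at 236 ± 121, HSPB1, and HSPE1, at 188 ± 122. HSPA1B followed at 99.5 ± 64.5, then DNAJB1 at 26.9 ± 12.4 and HSPH1 at 14.99 ± 5.89. Several of these ranges overlap, and the order of the genes was not tested. An SD between libraries does not measure differences between genes within a library. HSPA1A was last in each group, at 0.645 ± 0.26 in Flpo. All 10 members together held between 0.128% of counts in Cre replicate 2 and 0.552% in Flpo replicate 3.

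The rest of the heat shock system was described with 7 lists of 65 genes, of which 54 were tested. In Cre against Flpo, 14 were lower and 1 was higher (edgeR adjusted p under 0.05), with a median log2 fold change of -1.41, beside 14.3% of all tested genes lower in Cre and 20.5% called in either direction, with a median of -0.34. Without TMM scaling 8 were lower and 3 higher, with a median of -0.62, while the median of all genes was 0.44. In Cre against Cas9 and Flpo against Cas9, 0 of the 54 passed, with medians of -0.43 and 0.81.

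Of 12 HSP90 co-chaperones, 5 were lower in Cre than in Flpo and 7 did not pass, beside 14.3% of all tested genes lower in Cre. FKBP4, a peptidyl-prolyl isomerase of steroid receptor complexes, was at 119, 127 and 192 CPM in Cas9, 132, 25.7 and 39.1 in Cre, and 852, 275 and 2450 in Flpo, a log2 fold change of -4.15. STIP1, the adaptor that joins HSP70 to HSP90, was at 60.0, 66.2 and 41.1 CPM in Cre and 711, 185 and 981 in Flpo, or -3.51. PTGES3, the p23 co-chaperone, was at 159, 57.1 and 56.6 CPM in Cre and 898, 238 and 1410 in Flpo, or -3.20. All 3 had adjusted p-values between 0.0167 and 0.0195 in edgeR, and in each Flpo replicate 2 was the lowest of its group, as for the members.

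Among the HSP70 partners, 4 of 9 nucleotide exchange factors and other partners were lower in Cre and 5 did not pass, beside the same 14.3% of all tested genes. STUB1, a ubiquitin ligase that binds HSP70 and HSP90, had a log2 fold change of -3.59, and BAG5 and BAG4, of the BAG family that binds the HSP70 ATPase domain, had -2.91 and -2.80. The call of BAG4 was lost without TMM (edgeR adjusted p = 0.0612). Of 9 tested J-domain proteins other than DNAJB1, 2 were lower and 7 did not pass, beside 14.3% of all tested genes. DNAJA1, a farnesylated partner of HSPA8, was at 29.9, 3.68 and 22.1 CPM in Cre and 268, 53.9 and 358 in Flpo, or -3.47. DNAJC9, which also binds histones, had -2.59, and its call was lost without TMM (adjusted p = 0.0759). None of the 4 tested other HSP70 and HSP110 genes of the cytosol passed, of 6 listed, and their median was -0.13.

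Of 14 tested mitochondrial chaperones and proteases, 2 were lower in Cre than in Flpo and 12 did not pass, which is the share found among all tested genes (14.3%). TRAP1, the mitochondrial HSP90, was at 55.2, 36.8 and 6.66 CPM in Cre and 337, 88.8 and 342 in Flpo, or -2.96 (edgeR adjusted p = 0.0265). HSPA9, the mitochondrial HSP70 that also drives protein import, had -2.06, and its call was lost without TMM (adjusted p = 0.120). The median of the 14 was -1.29, against -3.12 and -4.65 for HSPD1 and HSPE1.

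Of 3 tested heat shock factors and binding proteins, 1 was lower in Cre than in Flpo and 2 did not pass, beside 14.3% of all tested genes lower in Cre. The 1 called was HSBP1, which binds heat shock factor 1, at -2.48 (edgeR adjusted p = 0.0207). Its edgeR adjusted p was 0.04995 without TMM and 0.0623 without Cre replicate 2. HSF1, the factor itself, was at 33.2, 17.9 and 20.1 CPM in Cre and 50.4, 37.3 and 61.3 in Flpo, at -1.01 ± 0.53 (adjusted p = 0.169). CRYAB, a small heat shock protein, was the 1 gene of the lists called higher in Cre, as were 735 of 11905 tested genes. It was at 11.1, 121 and 20.4 CPM in Cre against 5.98, 3.27 and 4.88 in Flpo, or 3.29 (edgeR adjusted p = 0.0308). These levels rest on few counts, 211 over all 9 libraries together. The smallest library, Cre replicate 2, gives 14.0 CPM to 3 counts on library totals, against 0.340 CPM in Flpo replicate 1. CRYAB was highest in Cre replicate 2, the library with the highest fibroblast marker sum in CPM. Its difference was 1.73 (edgeR adjusted p = 0.144) without that library and -0.86 when library depth entered the fit. Whether the fibroblast marker signal bears on CRYAB was not tested.

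**Figure D4:**
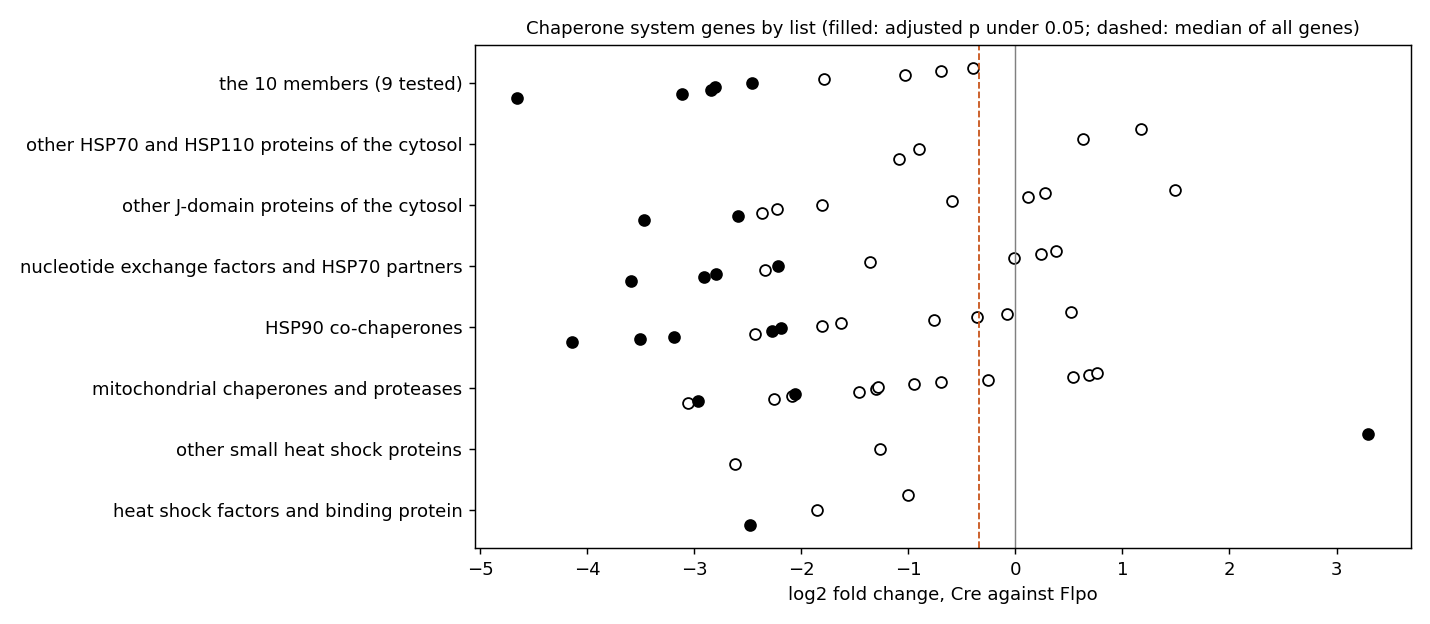
Log2 fold change of Cre against Flpo (horizontal axis) for each tested gene of the 10 members and of 7 lists of the heat shock system (rows). Filled points have an edgeR adjusted p under 0.05, and the dashed line is the median of all tested genes, -0.34. The HSP90 co-chaperones hold 5 filled points on the left, and CRYAB is the filled point on the right.

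The members varied together to different degrees. Over the 9 libraries, Pearson correlations between pairs of the 9 tested members, on scaled log2 levels, ran from -0.20 for HSPA1B with HSPB1 to 0.94 for HSP90AB1 with HSPH1. HSPA8 correlated at 0.927 with HSPE1 and 0.924 with HSPD1, but at 0.273 with HSP90AA1. HSPD1 and HSPE1, which share a promoter region, correlated at 0.911. These values are descriptions over libraries that share depth, scaling and group.

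By the same measure, among 7445 genes with a mean of at least 50 counts, the gene most like each of 8 tested members was SDHD for HSPA1B (0.985), CNBP for HSPA8 (0.994), PPAN for HSP90AA1 (0.981), ST13 for HSP90AB1 (0.991), MANBAL for DNAJB1 (0.997), RAB32 for HSPD1 (0.996), DNASE2 for HSPE1 (0.982) and PGLS for HSPB1 (0.979). ST13, an HSP70-interacting protein, was also on the list of HSP70 partners and was lower in Cre than in Flpo, at -2.22, a call that was lost without TMM (edgeR adjusted p = 0.109). The second gene by likeness was ACTB for HSPA1B, TIMM23 for HSPA8, UROS for HSP90AA1, LAS1L for HSP90AB1, SNX10 for DNAJB1, HNRNPA2B1 for HSPD1, OSER1 for HSPE1 and PMEPA1 for HSPB1.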

How the data were processed

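RNA-seq libraries (TRIzol RNA, TruSeq kit, per the labels' protocols) came from 9 HEK293 samples in 3 groups. The deposited values are estimated counts per gene symbol, not normalized, and the submitters' processing notes name Salmon 0.14.1 and hg38. Annotation, filters and strand use are not given in the sources used here. The deposited estimated counts were rounded to whole numbers. The count test was edgeR's quasi-likelihood test (edgeR 4.0.16, R 4.3.3), all 9 libraries in 1 fit, TMM scaling and the default filter (minimum count 10, minimum total 15), which kept 11905 genes. Adjusted p-values are Benjamini-Hochberg over those genes, with a threshold of 0.05. A standard error is the size of the log2 fold change over the square root of edgeR's F. Ratios were tested by exact permutation of log2 ratios (Python 3.11.15), with the sum of squares between the 3 groups as the statistic. GENCODE release 29 (GRCh38) held 35378 of 35876 symbols. Promoter sequences are RefSeq's.

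Samples were grouped by genotype label, and each pair of groups was compared, with 1 further test of any difference among the 3. The members, lists and the HSPD1 to HSPE1 ratio were chosen with earlier results of these data known. All members were named, with up to 3 called genes a list and direction, ST13 (through its likeness), HSF1 (chosen after its values were seen) and the 2 genes most like each member (those of HSPH1 are not reported here). There were 11 alternatives, including DESeq2 1.42.0 and limma 3.58.1, and each library was left out in turn. Those for the test of any difference, and those for the lists, were chosen after seeing the data. A floor of 3 counts covers counting error alone, because no molecular identifiers separate copies of 1 molecule. The code was tested on simulated data.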

Additional observations from a re-analysis of the deposited data

Results flagged for a closer look

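For 5 members the effect of Cre and the effect of Flpo, each against Cas9, differed by edgeR's test of the difference itself, which here equals Cre against Flpo because the Cas9 libraries cancel. The difference (log2) was -4.65 for HSPE1, -3.12 for HSPD1, -2.84 for HSPA8, -2.81 for HSPA1B and -2.46 for HSPH1, with adjusted p-values from 0.0167 to 0.0378. Neither effect alone passed the test for any of the 5. Depth separates the same groups, since every Cre library is smaller than every Flpo library, and the part of depth cannot be told apart from the genotype.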

How the results depend on the processing

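Of the 11 processing alternatives, the log2 total count as a covariate ended every call: 0 members passed in Cre against Flpo (2 had an unadjusted p under 0.05) and 0 in the test of any difference. Thinning to the smallest library, which left HSPE1 untested, gave 3 in Cre against Flpo, where 23.5% of its tested genes passed. It gave 2 in the test of any difference, which also had 2 without TMM. Quality weights in limma voom raised the counts to 5 for Cre against Cas9, 7 for Flpo against Cas9 and 9 for Cre against Flpo, where 33.3%, 61% and 67.6% of all tested genes passed. DESeq2 and the fit without a filter each gave 4 for Flpo against Cas9, where 7.75% and 4.6% of their tested genes passed. Leaving out 1 library gave 0 to 6 members for Cre against Flpo, where 0% to 44.1% of tested genes passed, and 0 to 6 for any difference. It gave 0 to 4 for Flpo against Cas9 (4 without Flpo replicate 2), where 0% to 21.3% of tested genes passed, and 0 throughout for Cre against Cas9. In the test of any difference, 0 passed without Cas9 replicate 2 or Flpo replicate 1, 1 without Cre replicate 3 or Flpo replicate 3, and 2 without Cre replicate 2. The shares of all genes in the alternative fits of any difference are not given here. In these fits the 2 libraries left in a group share 1 estimate of the spread with the other groups.

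With the replicate number as a block, 4 members and 13.2% of tested genes passed in Cre against Flpo (HSPH1 was lost, edgeR adjusted p = 0.0603). With that block 2 members passed in the test of any difference, and 0 in the comparisons with Cas9. The correlations of deviations between samples with the same number had mixed signs, from -0.549 to 0.527, with at least 1 below 0 in each comparison, so the numbers were not taken to pair the samples. Of 6 libraries, 0 correlated best with their own number in Cre against Cas9, 1 in Flpo against Cas9 and 3 in Cre against Flpo.

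The sign turned for members that had not passed, and for HSPH1. For Cre against Cas9, HSP90AA1 was 0.027 without TMM, 0.22 with the covariate and -0.63 to 0.24 with a library left out, and with the covariate HSP90AB1 was 0.24 and DNAJB1 0.26. For Flpo against Cas9, HSP90AA1 was -0.075 without TMM and -0.62 with the covariate, which also gave HSP90AB1 -0.17, DNAJB1 -1.23 and HSPH1 -0.77. For Cre against Flpo, HSP90AA1 was 0.10 without TMM and HSPB1 0.36, the covariate gave HSP90AA1 0.84, HSP90AB1 0.40, DNAJB1 1.49, HSPH1 0.34 and HSPB1 1.93, and HSPB1 ran from -1.82 to 0.0095 with a library left out. The cause was not tested.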
